A study of Mus musculus with 12 samples.

Results

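Heat shock proteins and related chaperones were followed in 12 RNA sequencing libraries of mouse inguinal white adipose tissue, a fat pad under the skin of the groin. The genes were chosen by symbol alone: Hspa to Hsph genes, Hsp90aa1 and Hsp90ab1, the Dnaja, Dnajb and Dnajc genes, and the subunits of the TRiC ring (Cct genes and Tcp1), leaving out Hspa5 and Hsp90b1. That rule found 74 of the 16670 genes listed. It used no measured value, but it was set with earlier results of these data known. They comprised 10 HSP70 genes, 3 HSP110 genes, 2 HSP90 genes, 6 small heat shock protein genes, 2 genes of the mitochondrial chaperonin, 9 TRiC genes, and 4 DNAJA, 12 DNAJB and 25 DNAJC genes. The last of the 74, Hspg2, encodes perlecan, a proteoglycan of basement membranes, and is not a chaperone. The set is also not wholly cytosolic, since 8 members are well-known mitochondrial chaperones and 5 J-domain proteins have their J domain in the lumen of the endoplasmic reticulum.

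All mice were female and of the C57BL/6 strain. Fat of 2 mice was pooled for each preparation, digested with collagenase and spun, which parted floating mature adipocytes from a pellet, the stromal vascular fraction, that holds progenitor, vascular and immune cells. The 4 groups of 3 libraries were adipocytes labelled Kdm5c+/– (heterozygous), adipocytes labelled Kdm5c+/+ (wild type), and the stromal vascular fractions under the same labels. The labels give no age and no treatment, and they do not say how the Kdm5c allele was made. They do not say outright that each library came from its own pool of mice, so the p-values below measure the spread between these libraries, part of which may be technical.

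Chaperones bind unfolded or partly folded proteins and keep them from aggregating. HSP70 proteins work in cycles of ATP hydrolysis that J-domain proteins (the DNAJ families) start and that HSP110 proteins, as nucleotide exchange factors, bring to an end; HSP90 acts later on kinases and hormone receptors, and the TRiC ring folds actin and tubulin. When unfolded proteins accumulate, heat shock factor 1 binds heat shock elements, repeats of GAA and TTC in alternating orientation, and raises the transcription of the inducible members, among them Hspa1a, Hspa1b, Dnajb1, Hsph1 and Hspb1. In fat cells, the mitochondrial chaperones serve the import and folding of proteins for the respiratory chain.

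Each library held 21836878 to 29434125 reads, and levels are in CPM, which sum to 1000000 in each library. At this depth 3 reads came to 0.102 to 0.137 CPM. Kdm5c itself, an X-linked histone demethylase gene, ran from 158 to 190.3 CPM in adipocyte libraries labelled Kdm5c+/– and from 174 to 180.0 CPM in wild type. In the stromal vascular fraction it ran from 175 to 194 and from 180.1 to 188 CPM. Its level does not bear the labels out, so libraries are called by their labels and every direction between genotypes follows those labels. The fraction labels held: 10 adipocyte markers summed to 39734 to 55448 CPM in adipocyte libraries and 4546 to 8271 CPM in the pellet, and 10 endothelial markers to 125 to 355 and 6938 to 9218 CPM. Progenitor (10 of 10), macrophage (9 of 9) and pericyte markers (9 of 10) were likewise higher in the pellet. One stromal vascular library stood apart among the chaperones, Kdm5c+/– replicate 2, and values without it are given where it moves a result.

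The heat shock element can be read in the promoters, and 6 stretches are shown because they hold an element and belong to members that the results return to. Of the 74 genes, 61 matched the RefSeq promoter table (GRCm38.p6), which holds 250 bases before to 50 after each start site. An element of 3 units is GAANNTTC followed by NN and GAA, or TTCNNGAA followed by NN and TTC, where N is any base. Searched on both strands, it lay in the windows of 4 of these 61 genes (6.56%), against 0.662% of 27025 genes in the table. The 4 genes were Hspd1, Hspe1, Hsph1 and Dnajb6. Elements of 2 units (GAANNTTC or TTCNNGAA, both also found inside the longer ones) lay in 17 of the 61 genes (27.9%) and in 17.0% of all. The windows of Dnajb1 held no element of either length, and Hspa8 and Hsp90aa1 had no window to search. A match is a run of letters and not a tested binding site. Below, the start site is followed by 30 bases, and capitals mark the element of 3 units, or for Hspa1a and Hspa1b that of 2 units.
Hspd1, chr1:55087903-55088182, minus strand: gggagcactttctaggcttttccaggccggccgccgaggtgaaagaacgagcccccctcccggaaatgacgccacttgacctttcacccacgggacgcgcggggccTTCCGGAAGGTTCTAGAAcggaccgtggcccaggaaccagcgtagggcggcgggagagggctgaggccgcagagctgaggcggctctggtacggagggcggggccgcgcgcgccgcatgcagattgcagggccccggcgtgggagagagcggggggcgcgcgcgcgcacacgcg
Hspe1, chr1:55088049-55088086, plus strand, the element with its flanks: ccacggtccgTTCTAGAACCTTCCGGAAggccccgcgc
Hsph1, chr5:149636286-149636565, minus strand: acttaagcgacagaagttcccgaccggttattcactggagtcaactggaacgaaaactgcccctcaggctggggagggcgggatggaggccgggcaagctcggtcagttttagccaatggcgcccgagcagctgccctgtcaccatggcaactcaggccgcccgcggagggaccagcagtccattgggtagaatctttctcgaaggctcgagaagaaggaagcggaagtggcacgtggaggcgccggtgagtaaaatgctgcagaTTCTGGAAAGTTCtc
Dnajb6, chr5:29735648-29735927, plus strand: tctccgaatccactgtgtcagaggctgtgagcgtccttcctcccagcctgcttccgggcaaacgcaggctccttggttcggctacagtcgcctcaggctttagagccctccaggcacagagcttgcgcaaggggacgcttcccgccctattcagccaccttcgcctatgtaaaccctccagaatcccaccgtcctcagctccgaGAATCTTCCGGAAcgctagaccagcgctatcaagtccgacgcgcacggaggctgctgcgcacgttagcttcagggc
Hspa1a, chr17:34972127-34972406, minus strand: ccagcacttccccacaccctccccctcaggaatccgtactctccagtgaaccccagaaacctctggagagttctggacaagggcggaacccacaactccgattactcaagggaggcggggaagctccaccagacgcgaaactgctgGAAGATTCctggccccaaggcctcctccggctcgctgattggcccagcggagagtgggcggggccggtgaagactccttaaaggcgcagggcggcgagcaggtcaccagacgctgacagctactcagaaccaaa
Hspa1b, chr17:34959209-34959488, minus strand: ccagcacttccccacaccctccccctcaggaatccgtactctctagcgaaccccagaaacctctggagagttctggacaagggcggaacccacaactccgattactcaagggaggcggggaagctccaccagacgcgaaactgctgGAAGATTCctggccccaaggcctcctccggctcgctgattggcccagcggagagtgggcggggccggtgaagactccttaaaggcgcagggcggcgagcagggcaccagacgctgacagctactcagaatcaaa

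Hspd1 and Hspe1, which encode the ring (HSP60) and the lid (HSP10) of the mitochondrial chaperonin, are transcribed away from each other. Their windows overlap, and the 18 bases in capitals are one and the same run read on opposite strands, in which 2 elements overlap. The Hsph1 element begins 15 bases after the start site shown and the Dnajb6 element 46 bases before it. The windows of Hspa1a and Hspa1b, neighbouring single-exon genes on chromosome 17 that encode the inducible cytosolic HSP70, were identical at 276 of the 280 bases shown. Their transcripts are near copies as well: 58.8% of the 50-base stretches of Hspa1a also occur in Hspa1b, and 62.3% the other way round. How reads were divided between the 2 genes is not given in the sources used here, so their separate levels are uncertain.

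The fractions differed in many chaperones, in both directions. Of 71 members tested over all 12 libraries, 58 passed in limma at a Benjamini-Hochberg adjusted p under 0.05 over all genes tested, and 87.8% of 14193 genes did. Higher in mature adipocytes were 30 members (28.7% of all genes were called in that direction), and 28 were higher in the pellet (59.1% of all genes). Library ranges did not overlap for 25 members higher in adipocytes and 23 lower (23.2% and 51.4% of all genes). The median log2 difference, adipocyte minus stromal vascular on log2(CPM + 1), was -0.0092 over the members and -0.45 over all genes tested. The split moved with the scaling of the libraries. The 10 most abundant genes took 15.7% to 19.3% of adipocyte and 5.77% to 8.41% of stromal vascular reads, and CPM divides by all reads. Counts called higher and lower became 45 and 18 with median-of-ratios scaling, 48 and 16 with quantile normalization, 46 and 17 with edgeR, and 45 and 17 with DESeq2. The median of all genes shifted toward adipocytes by 0.36, 0.55, 0.44 and 0.36 in that order, and edgeR and DESeq2 called 86% and 86.6% of all genes in either direction. Called in one direction under all 5 scalings were 30 members higher in adipocytes (42.3%, against 28.6% of all genes) and 15 higher in the stromal vascular fraction (21.1%, against 36.1%). For 18 members the sign changed. In bulk fractions, a lower level can come from fewer cells of a type or less RNA per cell, and these cannot be told apart.

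**Figure D1:**
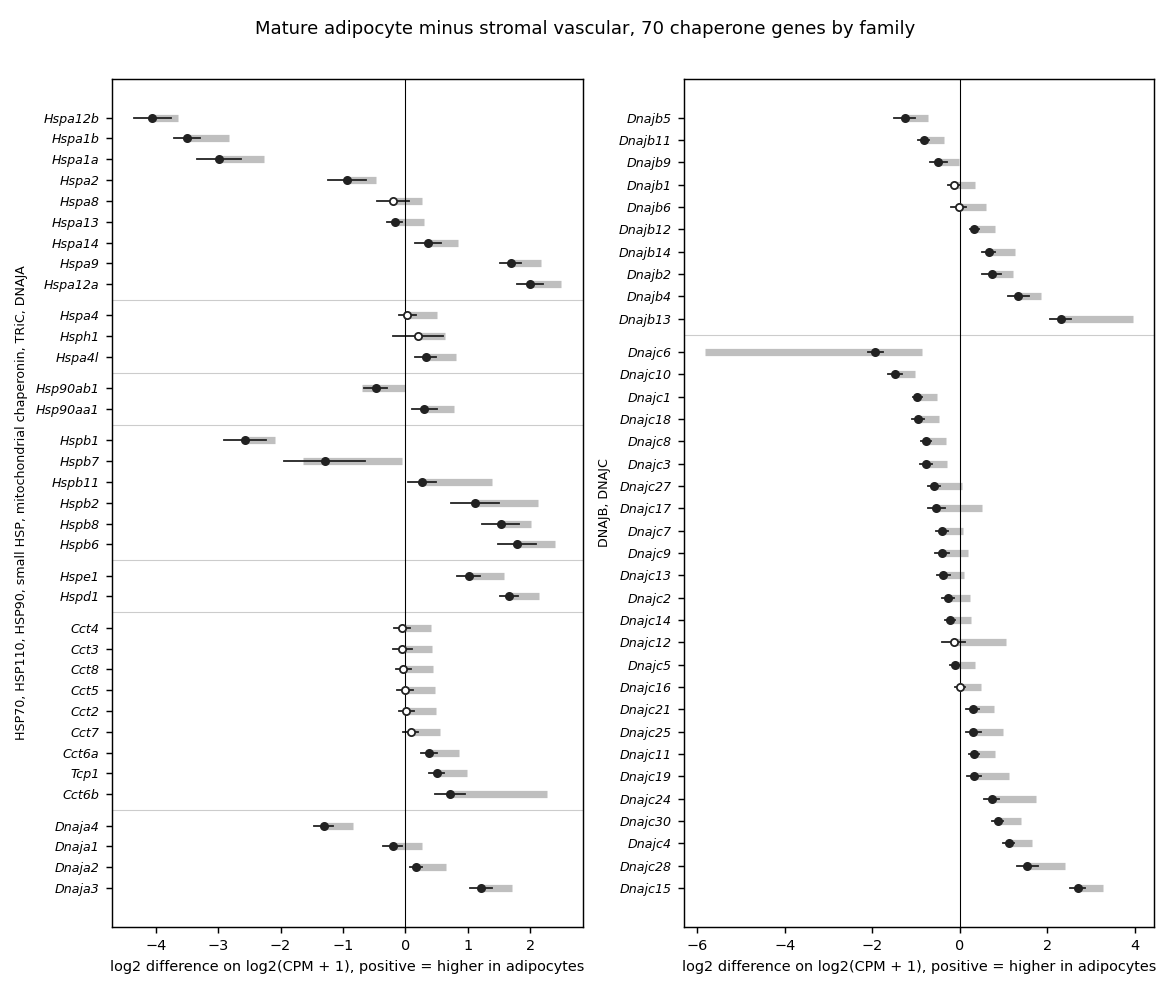
Log2 difference between mature adipocyte and stromal vascular libraries for 70 chaperone genes, grouped by family, on log2(CPM + 1); positive values are higher in adipocytes. Points are limma estimates with 95% intervals (thin lines), filled where the adjusted p is under 0.05, and grey bars span the estimates under 5 scalings; the 2 inducible HSP70 genes, Hspa12b and Hspb1 lie far to the left and Dnajc15, Dnajb13 and Hspa12a far to the right under each of them.

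Among the 9 HSP70 genes tested, 5 were higher in the stromal vascular fraction and 3 in adipocytes (59.1% and 28.7% of all genes). Hspa1a ran from 1.74 to 5.32 CPM (median 4.21) in adipocyte libraries and from 30.9 to 46.0 CPM (median 34.8) in stromal vascular libraries. Hspa1b ran from 3.31 to 5.40 CPM (median 4.55) in adipocyte libraries and from 50.9 to 70.4 CPM (median 60.9) in stromal vascular libraries. For both genes every stromal vascular library lay above every adipocyte library, and the pellet held 9.42 and 13.6 times the mean adipocyte level. The log2 differences were -2.99 ± 0.16 for Hspa1a (limma adjusted p = 5.21e-09) and -3.50 ± 0.095 for Hspa1b (1.35e-11), and they stayed between -2.26 and -3.50 under the 5 scalings. Summed, which sets aside how reads were divided between the copies, the pair ran from 5.04 to 10.7 CPM in adipocytes and from 81.8 to 111 CPM in the pellet. Hspa1l, the neighbouring gene known from testis, stayed at or under 1.35 CPM and was not tested.

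The pattern of the other inducible marker, Dnajb1, the J-domain partner of cytosolic HSP70, was not the same. It ran from 41.7 to 49.2 CPM (median 46.3) in adipocyte libraries and from 46.2 to 56.8 CPM (median 48.9) in stromal vascular libraries, and the ranges overlapped. Its log2 difference of -0.13 ± 0.064 missed the threshold (limma adjusted p = 0.0846). It passed with libraries of the same genotype and number as a block (adjusted p = 0.0496 in limma). It also passed without the adipocyte library Kdm5c+/– replicate 2 (-0.15, adjusted p = 0.0448 in limma). Under the other scalings it turned to 0.25 to 0.35, each past the threshold. Of the 12 members on the list of inducible heat shock genes, 5 were higher in adipocytes and 4 in the pellet on the CPM scale (28.7% and 59.1% of all genes). Under each of the other scalings these counts were 8 and 3. Of all 14193 genes, 5721 to 6678 were called higher in adipocytes and 5542 to 6550 in the pellet under those scalings. Their median log2 difference was 0.034, and 0.41 to 0.49 under the other scalings.

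The atypical HSP70 genes went opposite ways. Hspa12b, whose product is known from the endothelium, ran from 7.52 to 21.1 CPM (median 14.6) in adipocyte libraries and from 222 to 263 CPM (median 251) in stromal vascular libraries (log2 difference -4.06 ± 0.13, limma adjusted p = 9.44e-11). Its relative Hspa12a went the other way, from 205 to 349.8 CPM (median 315) in adipocyte libraries and from 65.6 to 74.0 CPM (median 71.8) in stromal vascular libraries (1.99 ± 0.093, limma adjusted p = 1.05e-09). Neither pair of ranges overlapped. The 10 endothelial markers, all detected, were also higher in the pellet (10 of 10 passed, median -5.00), and their part in the Hspa12b result was not tested. Hspg2 behaved like Hspa12b, at 763 to 1671 CPM in adipocytes and 4067 to 5349.6 CPM in the pellet, a log2 difference of -2.10 ± 0.13. Hspa12a shares exon bases with Eno4 on the opposite strand, and whether the counting used strand is not given in the sources used here.

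Constitutive cytosolic HSP70 did not pass. Hspa8, the main HSP70 of unstressed cells, ran from 362 to 456 CPM (median 387) in adipocyte libraries and from 384 to 674 CPM (median 426) in stromal vascular libraries. The top value belonged to the stromal vascular library Kdm5c+/– replicate 2, and the log2 difference of -0.20 ± 0.12 was -0.090 without that library, and 0.18 to 0.26 under all other scalings but quantile normalization (-0.20). Hspa2, needed for sperm formation, was higher in the pellet (38.1 to 58.1 CPM against 17.6 to 29.5 in adipocytes, -0.94 ± 0.14). Hspa14, a ribosome-associated HSP70, was higher in adipocytes (0.35 ± 0.095), with ranges that overlapped, and it shares exon bases with Gm45902 on the same strand. Hspa13 was called higher in the pellet at -0.18 but turned to 0.20 to 0.29 under the other scalings.

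The exchange factors and HSP90 moved by less than the inducible HSP70 pair. Of the 3 HSP110 genes, Hspa4l alone passed, higher in adipocytes (0.32 ± 0.078, limma adjusted p = 0.00192). Hsph1 ran from 29.9 to 42.6 CPM (median 35.8) in adipocyte libraries and from 23.0 to 62.3 CPM (median 28.1) in stromal vascular libraries. Here too Kdm5c+/– replicate 2 was the top stromal vascular library, and the difference of 0.19 ± 0.18 became 0.37 without it, past the threshold in limma (adjusted p = 0.00821). Hsph1 was called higher in adipocytes under each of the other scalings as well (0.56 to 0.64). Hspa4 (0.031 ± 0.062) did not pass on the CPM scale and was called higher in adipocytes under the other scalings (0.26 to 0.51).

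Hsp90ab1, the constitutive cytosolic HSP90, ran from 801 to 962 CPM (median 865) in adipocyte libraries and from 1069.5 to 1495 CPM (median 1197) in stromal vascular libraries, without overlap. Its log2 difference of -0.48 ± 0.083 came to between -0.0080 and -0.088, short of the threshold, with median-of-ratios scaling, edgeR and DESeq2, and was -0.69 with quantile normalization. The inducible Hsp90aa1 was higher in adipocytes, where it ran from 74.98 to 87.0 CPM against 56.6 to 87.1 CPM (0.30 ± 0.089, limma adjusted p = 0.00696). The highest stromal vascular value, again that of Kdm5c+/– replicate 2, lay above all adipocyte libraries. Per kilobase of exon, Hsp90ab1 had the highest mean level of all members in both fractions (288 and 403 CPM per kb). In adipocytes Hspa9 (119.7) and Hspa8 (92.4) came next, and in the pellet Hspg2 (330.4) and Hspa8 (108).

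**Figure D2:**
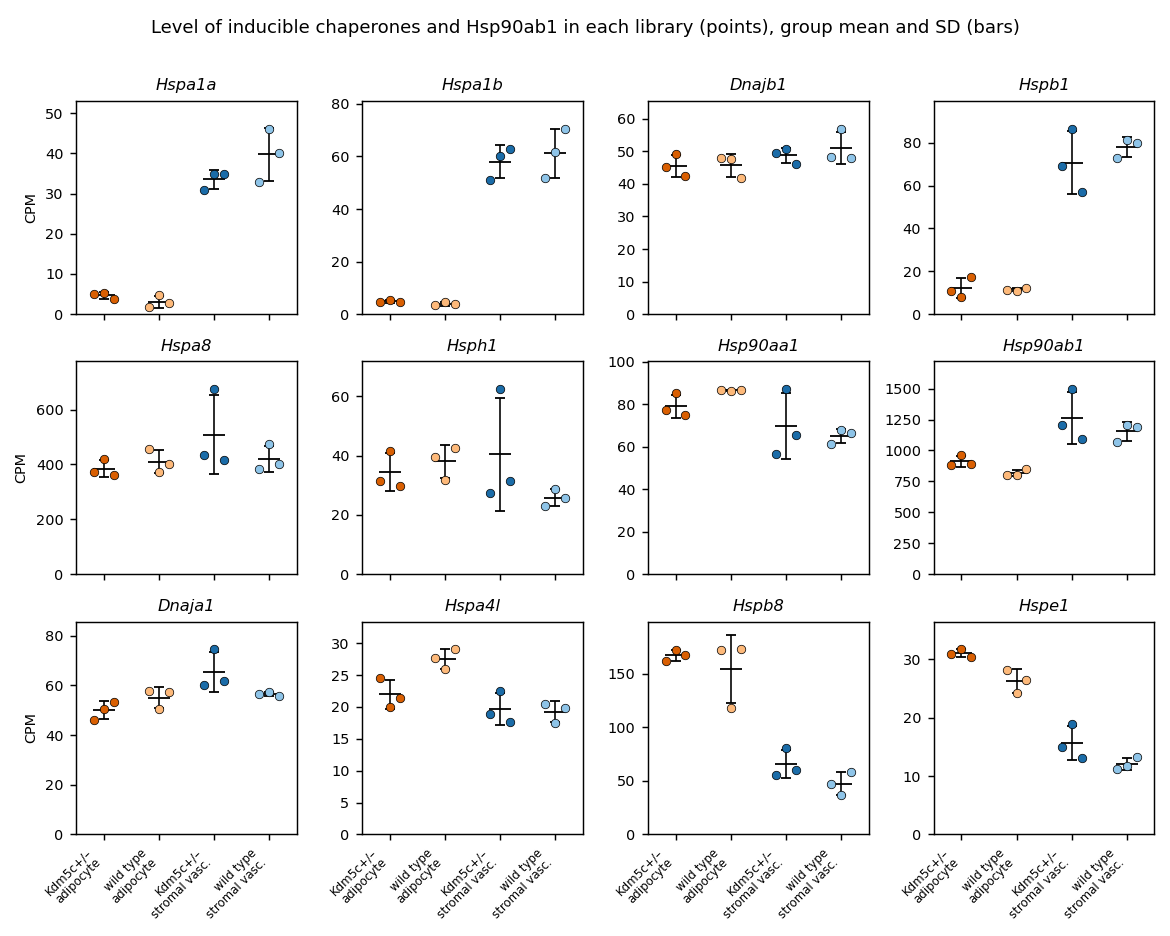
CPM of 12 chaperone genes in each library, with a panel per gene, 3 points per group, and bars for the group mean and SD; the vertical axes are linear and start at 0. Hspa1a and Hspa1b are at most 5.32 and 5.40 CPM in adipocyte libraries and at least 30.9 and 50.9 CPM in stromal vascular libraries, Dnajb1 overlaps between fractions, and the stromal vascular library Kdm5c+/– replicate 2 is the highest of its fraction for Hsph1 and Hspa8.

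Small heat shock proteins, which hold unfolded proteins without using ATP, split by gene. Hspb1, inducible and known to act on actin filaments, ran from 8.04 to 17.2 CPM (median 11.3) in adipocyte libraries and from 56.8 to 86.3 CPM (median 76.3) in stromal vascular libraries (log2 difference -2.57 ± 0.15, limma adjusted p = 1.35e-08). Hspb8, which works with the co-chaperone Bag3 in the autophagy of damaged proteins, ran the other way, from 118 to 173 CPM (median 169.7) in adipocyte libraries and from 36.6 to 80.4 CPM (median 57.1) in stromal vascular libraries (1.52 ± 0.14, limma adjusted p = 5.71e-07). Neither gene's ranges overlapped, and both calls held under the 5 scalings. Bag3 itself was higher in the pellet, at 132 to 175 CPM against 79.7 to 100.0 CPM in adipocytes (-0.75 ± 0.065), unlike its partner Hspb8.

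Hspb6 and Hspb2, small heat shock proteins best known from muscle, were also higher in adipocytes. Hspb6 ran from 34.2 to 59.1 CPM (median 41.5) in adipocyte libraries and from 9.04 to 14.0 CPM (median 12.6) in stromal vascular libraries (1.79 ± 0.14). Hspb2 ran from 6.12 to 14.4 CPM (median 10.1) in adipocyte libraries and from 3.41 to 5.16 CPM (median 3.83) in stromal vascular libraries (1.11 ± 0.18). Its exons overlap those of Cryab, the lens crystallin gene on the opposite strand, which was higher in adipocytes too (2.07 ± 0.19), so the reads of the pair cannot be told apart if strand was not used. Skeletal muscle markers (9 of 10 in the table) summed to 26.7 to 90.5 CPM in adipocyte and 7.38 to 21.6 CPM in stromal vascular libraries; most of the sum was Acta1, Myh2 was at 0 in all adipocyte libraries, and of 6 markers tested 2 were higher in adipocytes and 4 in the pellet. Their part in these results was not tested. Hspb7 was low, at 0.0400 to 1.94 CPM in adipocytes and 1.70 to 4.81 CPM in the pellet, where it was called higher (-1.29 ± 0.29); the estimate was -0.050 with quantile normalization. Hspb11, a subunit of the intraflagellar transport complex, differed by 0.27 with ranges that overlapped.

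The members placed in mitochondria were higher in mature adipocytes: 8 of 8 passed under all 5 scalings, against 28.6% of all genes. Their median was 1.11 on the CPM scale. The grouping by compartment was made after the values were seen and is a description. Hspa9, the mitochondrial HSP70 that drives protein import, ran from 483 to 590.4 CPM (median 505) in adipocyte libraries and from 144 to 186 CPM (median 157) in stromal vascular libraries (log2 difference 1.68 ± 0.074, limma adjusted p = 6.11e-10). Hspd1 ran from 158 to 175 CPM (median 169) in adipocyte libraries and from 47.8 to 64.7 CPM (median 50.9) in stromal vascular libraries (1.65 ± 0.066), and Hspe1 ran from 24.2 to 31.7 CPM (median 29.3) in adipocyte libraries and from 11.3 to 18.9 CPM (median 13.2) in stromal vascular libraries (1.01 ± 0.084). No stromal vascular library reached the lowest adipocyte library for any of the 3 genes. Exons of Hspd1 and Hspe1 overlap on opposite strands, so reads there cannot be told apart if strand was not used. Summed chaperonin levels were 2.94 times as high in adipocytes as in the pellet.

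Mitochondrial J-domain proteins lay on the same side as Hspa9. Dnajc15, which sits in the inner membrane and restrains respiratory complex I, ran from 68.9 to 93.9 CPM (median 78.9) in adipocyte libraries and from 9.95 to 13.7 CPM (median 11.03) in stromal vascular libraries (log2 difference 2.69 ± 0.081, limma adjusted p = 2.79e-11). That was the largest difference toward adipocytes among the members on this scale. Dnaja3, the J-domain partner of Hspa9 in the matrix, ran from 85.2 to 104 CPM (median 97.5) in adipocyte libraries and from 35.2 to 48.0 CPM (median 39.8) in stromal vascular libraries (1.21 ± 0.079). Smaller differences in the same direction were found for Dnajc30 (0.87 ± 0.057), Dnajc19, a part of the import motor (0.33 ± 0.075), and Dnajc11 (0.32 ± 0.056). The 10 adipocyte markers were higher in the same libraries (10 of 10 passed), and their part in these results was not tested.

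The J-domain proteins placed in the endoplasmic reticulum lumen lay on the other side. All 5 were higher in the stromal vascular fraction on the CPM scale, as were 59.1% of all genes. Under every scaling 4 of them were, against 36.1% of all genes. They too were placed after the values were seen, and may not be all such members. Dnajc10, a reductase of disulfide bonds, ran from 32.4 to 49.0 CPM (median 37.9) in adipocyte libraries and from 102 to 119.7 CPM (median 109.9) in stromal vascular libraries (log2 difference -1.49 ± 0.073, limma adjusted p = 1.66e-09). Dnajc3 ran from 102 to 117 CPM (median 107) in adipocyte libraries and from 175 to 215 CPM (median 181) in stromal vascular libraries (-0.77 ± 0.059), and Dnajb11, a cofactor of the lumenal HSP70, ran from 40.5 to 46.4 CPM (median 43.7) in adipocyte libraries and from 66.7 to 84.7 CPM (median 78.8) in stromal vascular libraries (-0.83 ± 0.054). The ranges of these 3 genes did not overlap, nor did those of Dnajc1 (-0.97 ± 0.047). Dnajb9, a target of the unfolded protein response, overlapped between fractions (-0.49 ± 0.089), and its call was lost under each of the other scalings (-0.019 to -0.12). Dnajb12 and Dnajb14, which are anchored in the same membrane but expose their J domain to the cytosol, were higher in adipocytes (0.33 ± 0.048 and 0.66 ± 0.069). That pair was placed after the values were seen and is not a full list of such members. Dnajc18, which was given no compartment, was higher in the pellet (-0.96 ± 0.063).

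**Figure D3:**
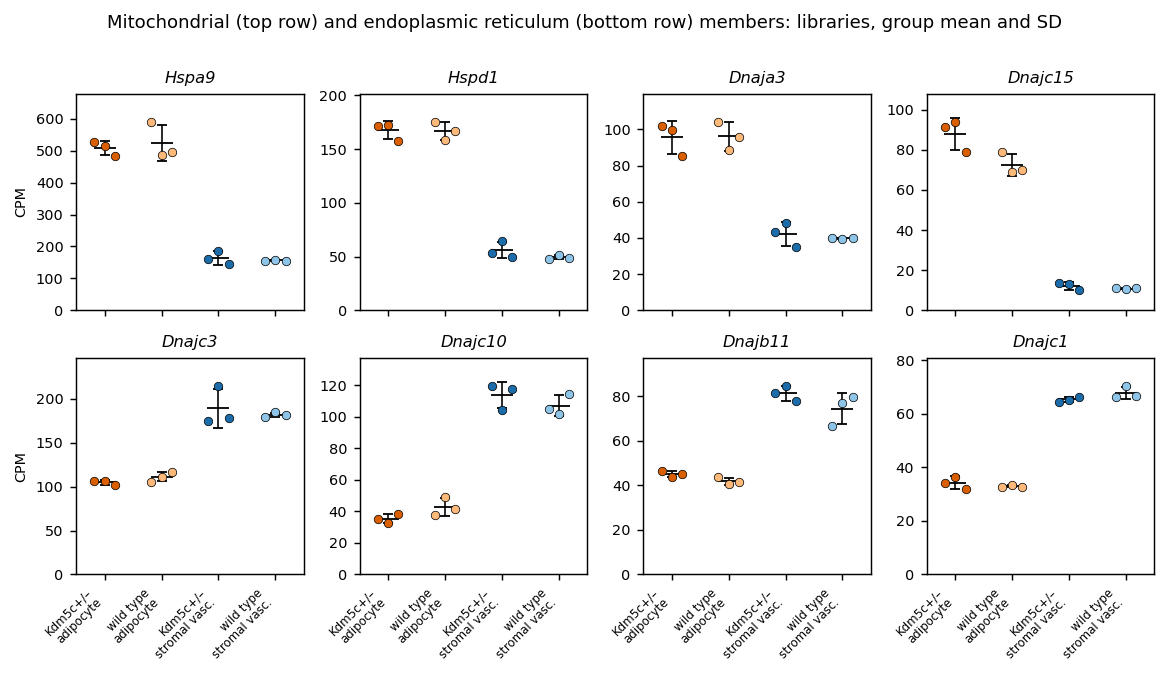
CPM in each library for 4 mitochondrial (top) and 4 endoplasmic reticulum (bottom) chaperone genes, with group means and SD as bars; linear axes start at 0. The mitochondrial genes are higher in all 6 adipocyte libraries and the endoplasmic reticulum genes in all 6 stromal vascular libraries.

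The 8 main subunits of the TRiC ring, which assemble in equal numbers, stayed close to one another. Cct6a (0.38 ± 0.059) and Tcp1 (0.50 ± 0.055) were higher in adipocytes under all 5 scalings. The other 6 lay between -0.057 (Cct4) and 0.081 (Cct7) on the CPM scale, none past the threshold, and between 0.24 and 0.56 under the other scalings, each past it. Summed, the 8 subunits ran from 906 to 945 CPM in adipocytes and from 793 to 942 CPM in the pellet. Cct6b, the testis form of the Cct6a subunit, was near 1 CPM in adipocytes (0.827 to 1.54) and lower in the pellet (0.183 to 0.671), a difference of 0.71 on log2(CPM + 1) and 2.26 with edgeR.

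The cytosolic DNAJA proteins shared no single direction. Dnaja4 was higher in the pellet (32.6 to 40.7 CPM against 12.01 to 16.2, -1.31 ± 0.066). Dnaja2 was slightly higher in adipocytes (0.17 ± 0.044), without overlap. Dnaja1, an inducible partner of Hspa8, was called higher in the pellet on the CPM scale (-0.21 ± 0.066) and higher in adipocytes under each of the other scalings (0.16 to 0.26).

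In the DNAJB class, Dnajb4 ran from 56.2 to 89.5 CPM (median 79.3) in adipocyte libraries and from 24.5 to 33.0 CPM (median 29.5) in stromal vascular libraries (1.34 ± 0.11). Dnajb5 did the reverse (22.8 to 31.7 CPM in the pellet, 8.22 to 14.0 in adipocytes, -1.26 ± 0.11). Dnajb2, which binds ubiquitin, was higher in adipocytes (0.73 ± 0.097). Dnajb6, a suppressor of protein aggregation whose promoter is shown above, lay at 12.4 to 16.3 and 12.2 to 16.2 CPM, and its difference of -0.022 turned to 0.34 to 0.59 under the other scalings. Dnajb13, a protein of the axoneme of cilia and sperm, ran from 5.48 to 8.88 CPM (median 7.21) in adipocyte libraries and from 0.404 to 0.870 CPM (median 0.692) in stromal vascular libraries (2.31 ± 0.11). At such low levels adding 1 CPM shrinks the difference, which was 3.96 with edgeR and 3.89 with DESeq2. Its exons overlap those of Ucp2 on the opposite strand, and Ucp2 was higher in the pellet (269 to 522 CPM) than in adipocytes (28.3 to 96.9 CPM). Dnajb3 and Dnajb7 stayed at or under 1.06 and 0.247 CPM and were not tested.

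Of the 25 DNAJC genes, which lend a J domain to many separate tasks, 9 were higher in adipocytes and 14 in the pellet on the CPM scale, where 28.7% and 59.1% of all genes were called. The balance turned with the other scalings, to 12 and 8 (median of ratios), 15 and 6 (quantile), 13 and 7 (edgeR) and 12 and 7 (DESeq2), and 9 and 6 were called under all 5. Over all 14193 genes the counts turned too, to 5721 and 6550, 6678 and 5542, 6063 and 6145, and 5768 and 6530 in that order. Under all 5 scalings, 28.6% and 36.1% of all genes were called. Dnajc6, auxilin, which uncoats clathrin vesicles in neurons, was found at 2.63 to 3.49 CPM in the pellet and at 0 to 0.157 CPM in adipocytes, with 0 reads in 2 of 6 libraries. Dnajc8, of the spliceosome (-0.77 ± 0.055), and Dnajc18 (-0.96 ± 0.063) were higher in the pellet under every scaling. Toward adipocytes lay Dnajc28 (1.54 ± 0.11), Dnajc4 (1.12 ± 0.057), and Dnajc24 (0.73 ± 0.076), which takes part in the diphthamide modification of elongation factor. Dnajc25 and Dnajc21, a factor of ribosome assembly, differed by 0.31 and 0.29 in that direction. Dnajc13, of endosomal sorting (-0.37 ± 0.064), and Dnajc5, of synaptic vesicles (-0.12 ± 0.045), were called higher in the pellet on the CPM scale. With scaling by median of ratios, edgeR or DESeq2 both turned positive. The Dnajc5 call was also lost without adipocyte wild-type replicate 2 (-0.11, adjusted p = 0.0597 in limma), stromal vascular Kdm5c+/– replicate 1 (-0.10, 0.0604) or wild-type replicate 1 (-0.10, 0.0669). Dnajc2, Dnajc7, Dnajc9, Dnajc14, Dnajc17 and Dnajc27 were called higher in the pellet at -0.59 to -0.21 and changed sign under at least 1 other scaling. Dnajc12 (-0.14) and Dnajc16 (0.0016) did not pass.

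The genes that regulate or assist the chaperones also split between fractions. On the CPM scale, 59.1% of all genes were called higher in the pellet and 28.7% in adipocytes. Under all 5 scalings the shares were 36.1% and 28.6%. Under the other scalings taken singly, 5542 to 6550 of 14193 genes were called higher in the pellet and 5721 to 6678 in adipocytes. Of 6 heat shock factor genes and regulators tested, 4 were higher in the pellet and 2 in adipocytes, and 2 and 2 under all 5 scalings. Hsf1, the factor of the heat shock response, ran from 27.1 to 31.4 CPM (median 29.3) in adipocyte libraries and from 44.4 to 56.5 CPM (median 52.4) in stromal vascular libraries (-0.80 ± 0.064), without overlap. Hsbp1, which binds and restrains it, lay the other way (0.72 ± 0.06). Of 26 co-chaperones of HSP70 and HSP90, 12 were called higher in the pellet and 8 in adipocytes, and 2 and 8 under all 5 scalings. Sgta (1.33 ± 0.051) and Bag1 (1.47 ± 0.065) were higher in adipocytes and Bag5 (-1.28 ± 0.055) in the pellet. Prefoldin, which hands nascent actin and tubulin to TRiC, had 5 of 8 genes and helpers higher in the pellet and 1 in adipocytes on the CPM scale, 3 or 4 on each side under the other scalings, and 3 and 1 under all 5. Vbp1 (-1.39 ± 0.068) and Pfdn5 (-0.79 ± 0.056) were among those higher in the pellet.

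Within mature adipocytes, no member differed between the genotype labels past the threshold. In limma 0 of 69 members and 0 of 11913 genes (0%) passed, edgeR called 0 members and 0 genes, and DESeq2 called 0 members and 250 genes (2.1%). At an unadjusted p under 0.05 there were 14 members, which is 20.3% of those tested against 14.6% of all genes. Of these, 4 were higher and 10 lower under the Kdm5c+/– label (5.57% and 9.01% of all genes). The median log2 difference was -0.041 over members and -0.035 over all genes. For 7 members the 3 libraries labelled Kdm5c+/– lay above all 3 of wild type, and for 14 they lay below (9.44% and 12.6% of all genes).

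**Figure D4:**
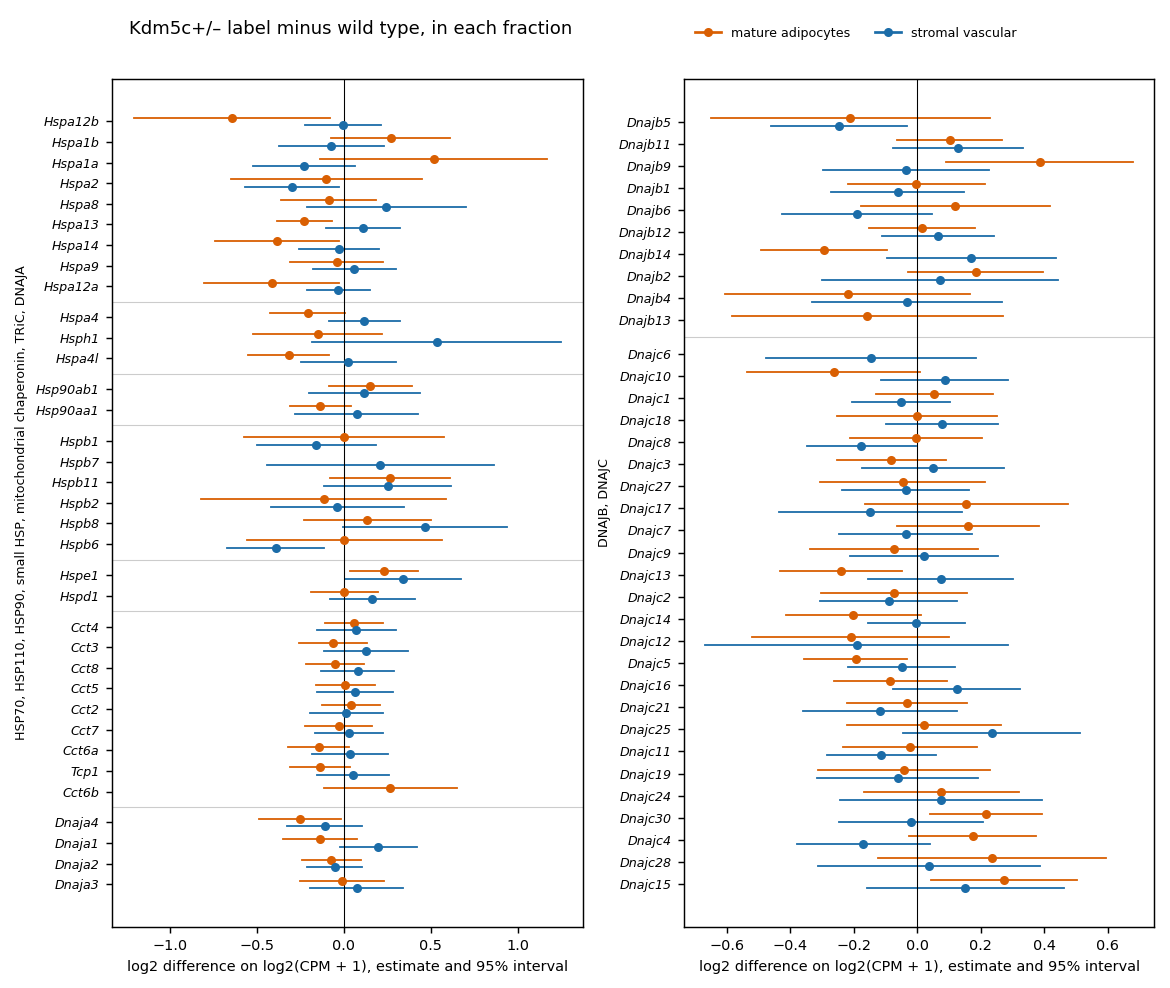
Log2 difference between libraries labelled Kdm5c+/– and wild type for chaperone genes in mature adipocytes (orange) and in the stromal vascular fraction (blue), on log2(CPM + 1), as limma estimates with 95% intervals. No gene passed after adjustment in either fraction; Hspa12b has the lowest adipocyte estimate and Hsph1 the widest stromal vascular interval. The 2 panels have different horizontal scales.

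The inducible pair had positive estimates in adipocytes that did not pass. Hspa1a was 4.95, 5.32 and 3.72 CPM under the Kdm5c+/– label and 1.74, 4.69 and 2.90 CPM in wild type, a log2 difference of 0.52 ± 0.28 (limma adjusted p = 0.406) that ranged from 0.26 without wild-type replicate 1 to 0.78 without wild-type replicate 2. Hspa1b was 4.59, 5.40 and 4.62 against 3.31, 4.52 and 3.82 CPM (0.27 ± 0.14). The Hspa1a ranges overlapped, and the lowest Hspa1b value under the Kdm5c+/– label was just above the highest of wild type. The estimate of Dnajb1 was near 0 (-0.0035 ± 0.091, 95% interval -0.22 to 0.21).

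The negative estimates with the smallest p belonged to Dnajb14, Hspa13, Hspa4l and Hspg2. Dnajb14 was 17.9, 20.6 and 19.2 CPM under the Kdm5c+/– label and 24.6, 23.1 and 23.6 in wild type (-0.29 ± 0.084, limma adjusted p = 0.286, the smallest among the members). Hspa13 was 34.1, 34.4 and 36.2 against 40.8, 40.9 and 41.1 CPM (-0.23 ± 0.067). Hspa4l was 24.5, 20.0 and 21.5 against 27.7, 25.9 and 29.0 CPM (-0.32 ± 0.099). In all 3 genes the labels did not overlap, yet the adjusted p stayed at 0.286 or above.

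Hspg2 was 763, 806 and 1124 CPM against 1189.8, 1671 and 1258 CPM (-0.62 ± 0.20), and Hspa12b 11.6, 7.52 and 14.5 against 17.4, 21.1 and 14.6 CPM (-0.64 ± 0.24). These 2 genes, both far more abundant in the pellet, had the largest negative estimates. The 10 endothelial markers moved with them: their sum was 212, 125 and 226 CPM under the Kdm5c+/– label and 355, 314 and 285 CPM in wild type, and 10 of 10 estimates were negative. Other cell types of the pellet did the same, with negative estimates for 10 of 10 progenitor, 9 of 10 pericyte and 8 of 8 macrophage markers tested, none past the threshold. Over all genes, 56.9% of the estimates were negative. The part of these markers in the result was not tested.

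Higher estimates with the smallest p were found for 3 mitochondrial members and for Dnajb9. Dnajb9 was 51.3, 59.1 and 43.2 CPM against 42.0, 37.0 and 37.1 CPM (0.39 ± 0.12), without overlap. Hspe1 was 31.0, 31.7 and 30.4 against 28.2, 24.2 and 26.4 CPM (0.23 ± 0.082), also without overlap, while its partner Hspd1 had an estimate of 0.0032 ± 0.081. Dnajc30 (0.22 ± 0.074) and Dnajc15 (0.27 ± 0.097) had like values, with adjusted p in limma of 0.3 and 0.305. Hspa9 had an estimate of -0.041 ± 0.11, and of the 8 mitochondrial members 4 had positive and 4 negative estimates. Adipocyte markers summed to 52982, 55448 and 45147 CPM under the Kdm5c+/– label and 39734, 40557 and 40488 CPM in wild type. Of these markers, 7 of 10 had positive estimates, none past the threshold, while 56.9% of all genes had negative ones. Their part in these values was not tested.

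In the stromal vascular fraction, 0 of 69 members passed in limma, where 1 of 13792 genes (0.00725%) did. The edgeR test called 0 members and 1 gene, and DESeq2 0 members and 53 genes (0.384%). At an unadjusted p under 0.05 there were 5 members (7.25%, against 7.56% of all genes), 1 higher and 4 lower (2.07% and 5.5% of all genes). The median was 0.027 over members and -0.033 over all genes. Non-overlapping groups were counted in 3 members with the Kdm5c+/– label above and 7 with it below (3.74% and 9.74% of all genes).

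Hspb6 had the smallest p of the lower members, with 11.98, 9.71 and 9.04 CPM under the Kdm5c+/– label against 13.2, 14.0 and 13.8 CPM (-0.39 ± 0.12, limma adjusted p = 0.617). It was followed by Dnajb5 (-0.25 ± 0.092), Hspa2 (-0.30 ± 0.12) and Dnajc8 (-0.18 ± 0.074). In these 4 genes all libraries of one label lay below those of the other. Hspa1a (-0.23 ± 0.13) and Hspa1b (-0.071 ± 0.13) overlapped between labels. Higher estimates with the smallest p were those of Hspe1 (0.34 ± 0.14), Hspb8 (0.47 ± 0.20), Dnaja1 (0.20 ± 0.094) and Dnajc25 (0.23 ± 0.12).

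Several of these positive estimates were larger with 1 library than without it. Hsph1 was 27.4, 62.3 and 31.3 CPM in the 3 libraries labelled Kdm5c+/– and 23.0, 28.7 and 25.8 CPM in wild type. The second value was 2.29 times the mean of the other 5 libraries, and the estimate of 0.54 ± 0.30 had a 95% interval from -0.18 to 1.25. Without that library the Kdm5c+/– values of 27.4 and 31.3 CPM lay on either side of the highest wild-type value, and the estimate was 0.18. Hspa8 was 435, 674 and 416 against 384, 473 and 402 CPM, with the same library 1.60 times the mean of the others. Its estimate of 0.25 ± 0.19 came to 0.025 without that library. In Hspb8 it was 1.56 times, in Hspe1 1.47 times, in Hsp90aa1 1.37 times, and in Hspd1 and Dnaja1 1.28 times that mean. Left out, it took the genotype estimate of Hspb8 to 0.31, that of Hspe1 to 0.21, that of Dnaja1 to 0.10, that of Hspd1 to 0.058 and that of Hsp90aa1 to -0.095. The Hspb8 estimate fell as far, to 0.30, without wild-type replicate 2 instead.

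This library, Kdm5c+/– replicate 2, was the highest of the 6 for 9 of the 12 inducible members (75%), for 6 of the 8 main TRiC subunits and for 11 of 26 co-chaperones. Over 69 members it was the highest for 31 (44.9%), and over all genes for 21.5%. Both inducible HSP70 genes and Dnajb1 were not among them: Hspa1a, Hspa1b and Dnajb1 stood at 0.940, 1.01 and 1.02 times the mean of the other libraries. Without that library the median of the members was -0.020. Several other measures were also at an extreme in this library. Adipocyte markers summed to 8271 CPM there against 4546 to 7115 CPM in the others, and endothelial markers to 6938 against 7441 to 9218. Mammary epithelium markers summed to 387 CPM against 101 to 295 CPM in the others, Schwann cell markers to 949.7 against 380.3 to 667, and macrophage markers to 3083 against 2122 to 2766. The ribosomal RNA precursor Rn45s was at 18620.5, 19532 and 8985 CPM under the Kdm5c+/– label and 6733, 6554 and 6676 CPM in wild type. Rn45s was thus highest in Kdm5c+/– replicate 2 and nearly as high in replicate 1, and all libraries of that label lay above those of wild type. Fkbp5, a co-chaperone of HSP90 that glucocorticoids induce, reached 178 CPM in stromal vascular Kdm5c+/– replicate 2 against 32.2 to 65.8 CPM. In the adipocyte library of the same label and number it reached 80.5 CPM against 9.47 to 29.6 CPM. Their part in the chaperone levels was not tested.

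**Figure D5:**
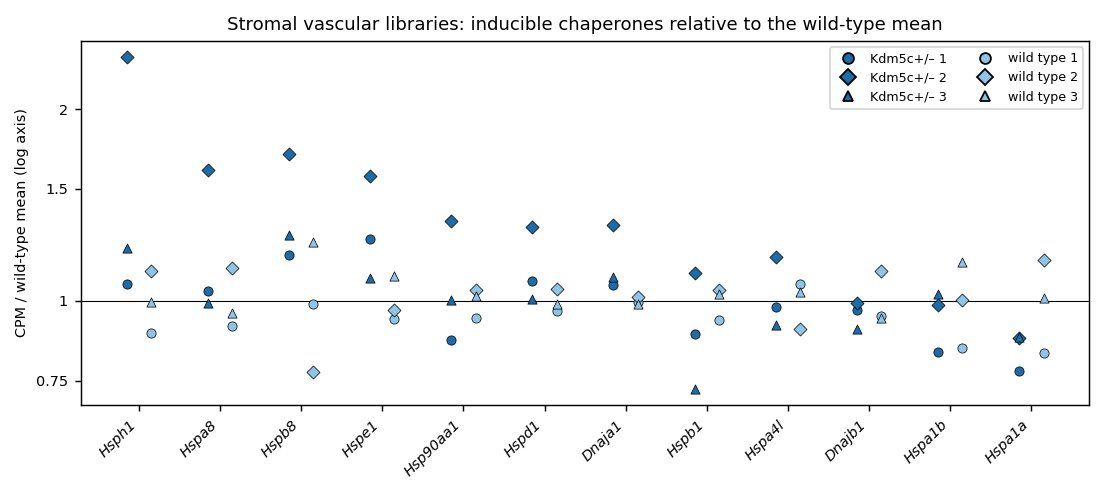
Level of the 12 inducible members in each of the 6 stromal vascular libraries, divided by the wild-type mean, on a log axis; symbols mark the replicate and shades the label. Kdm5c+/– replicate 2 (dark diamonds) is the highest library from Hsph1 to Hspa4l, and lies among the others for Dnajb1, Hspa1b and Hspa1a.

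The genotype difference was not shown to be unlike in the fractions for any member. In limma 0 of 71 members and 0 of 14193 genes (0%) passed the test of that difference, edgeR called 0 of each, and DESeq2 0 members and 65 genes (0.458%). At an unadjusted p under 0.05 there were 12 members, or 16.9% against 8.93% of all genes. The estimate was higher in adipocytes than in the pellet for 3 of them and lower for 9 (4.24% and 4.69% of all genes). Dnajb14 (-0.46 ± 0.14, limma adjusted p = 0.504), Hspa13 (-0.34 ± 0.11), and Dnajc4 (0.34 ± 0.11) had the smallest p. For Hspa1a the estimate was 0.75 ± 0.32, and it was 0.48 without adipocyte wild-type replicate 1. For Hsph1 it was -0.68 ± 0.36, and -0.33 without stromal vascular Kdm5c+/– replicate 2. In no member did the labels part in opposite directions in the fractions without overlap. The median of -0.059 over the members came to -0.014 without stromal vascular Kdm5c+/– replicate 2 and to -0.11 without replicate 3.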

How the data were processed

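The 12 libraries were made from total RNA with a strand-specific NuGEN Universal plus mRNA-Seq kit, per the labels' protocols. The submitters' processing notes name STAR 2.7.2a, edgeR 3.26.8 and GRCm38. For the counting tool, its annotation and its use of strand, nothing was found in the labels. The deposited table holds CPM although its headers call the columns counts: each column sums to 1000000. The authors' table listed 16670 genes, each above 0.1 CPM in at least 3 libraries, and 23 names had been turned into dates. Values came out as whole reads within 0.05 of a read for 100% of entries, and those reads were used for the edgeR and DESeq2 alternatives.

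Tests were run with limma 3.58.1 in R 4.3.3 (trend and robust options) on log2(CPM + 1), two-sided, over all genes with at least 1 CPM in at least 3 of the libraries fitted. P-values were adjusted by Benjamini-Hochberg over all of them, with a threshold of 0.05. Errors are standard errors of the fit unless named otherwise. The fraction comparison and the test of the genotype difference between fractions used 12 libraries, and each genotype comparison used the 6 of its fraction. Alternatives were a pseudocount of 0.25, no filter, a filter on means under 5 CPM, scaling by quantiles or by the median of ratios, edgeR 4.0.16, DESeq2 1.42.0, a replicate block and leaving out each library. The scripts were tested on simulated data.

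Libraries of both fractions with the same genotype and number deviated together (r from 0.169 to 0.278 over 6 pairs), and may come from the same pool. The labels do not state this. Across fractions, libraries of the same genotype with unlike numbers all had negative r (-0.181 to -0.026). Libraries of 1 fraction under different labels reached 0.39, between unlike numbers, so the size of r alone does not show a shared pool. The main fits did not use the pairs of the same genotype and number and treated all libraries as independent. A block for the pairs was an alternative.

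The members were chosen by symbol, and the members and gene lists were chosen with earlier results of these data known. Members were named by the size of their difference or p in each comparison. All members are accounted for, and the compartments and further names were chosen after the values were seen. Exon overlaps and lengths came from GENCODE M21, where 74 of 74 members matched.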

Additional observations from a re-analysis of the deposited data

How the results depend on the processing

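The fraction comparison depended on scaling. Members called higher in adipocytes rose from 30 to 48 with quantile normalization and 46 with edgeR, and those called lower fell from 28 to 16 with quantile normalization, to 17 with both DESeq2 and edgeR, and to 18 when scaled by the median of ratios. Over all 14193 genes, those called higher rose as well, from 4072 to between 5721 and 6678. Genes called lower fell from 8394 to between 5542 and 6550. The median of the members moved to 0.38 (median of ratios), 0.41 (quantile), 0.47 (edgeR) and 0.38 (DESeq2). The sign changed for 18 members. Read in that order, these include Dnajb1 (0.26, 0.25, 0.35 and 0.27), Dnaja1 (0.18, 0.16, 0.26 and 0.18), Dnajc5 (0.27, 0.19, 0.36 and 0.27), Cct5 (0.38, 0.24, 0.47 and 0.38), Cct3 (0.34, 0.29, 0.42 and 0.34), Cct4 (0.33, 0.24, 0.42 and 0.34) and Cct8 (0.35, 0.28, 0.44 and 0.36). Without quantile normalization, where the sign held, the same was seen for Dnajc13 (0.015, 0.097 and 0.018) and Hspa8 (0.19, 0.26 and 0.18). The other 9 were Hspa13, Dnajb6, Dnajc2, Dnajc12 and Dnajc14, positive under all 4, and Dnajc7, Dnajc9, Dnajc17 and Dnajc27, positive under some. The members' median for genotype in adipocytes became 0.0038 with median-of-ratios scaling and 0.0034 with quantile normalization, and Dnajb1 there became 0.040, 0.034, 0.040 and 0.038. With wild-type libraries alone the fraction estimates were 0.020 for Cct5, -0.0014 for Cct2, 0.046 for Cct3 and 0.031 for Cct8.

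Leaving out single libraries took the fraction estimates from -0.0055 to 0.068 for Hspa4, from -0.049 to 0.020 for Cct5 and from -0.020 to 0.038 for Cct2. For genotype in adipocytes Dnajb1 ran from -0.066 to 0.044. In the stromal vascular fraction Hspa1b ran from -0.18 to 0.034, Dnajb1 from -0.10 to 0.017, and the members' median from -0.020 to 0.070. The median of the interaction ran from -0.11 to -0.014 and Dnajb1 in it from -0.020 to 0.11. A heat shock element of 2 units in place of 3 took the share of member promoters from 6.56% to 27.9% and of all genes from 0.662% to 17.0%. The cause of these shifts was not tested.

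With libraries of the same genotype and number as a block, 30 members were called higher in adipocytes and 29 lower. The added call was Dnajb1, and no member was called in the interaction. Within a fraction, numbers shared by the genotype labels did not pair the libraries (r of 0.341, -0.026 and -0.0013 in adipocytes and 0.184, -0.281 and -0.204 in the stromal vascular fraction). The block there left 0 members called in both fractions and took the count over all genes in the stromal vascular fraction from 1 to 0. No other member call changed with the block. With 3 libraries per group, small differences were not detectable. In the pellet Cct6b (0.183 to 0.671 CPM) and Dnajb13 (0.404 to 0.870 CPM) fell short of the filter and were not tested between genotype labels. The same held for Dnajc6 and Hspb7 in adipocytes. Hspa1l, Dnajb3 and Dnajb7 were in none of the main fits.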

Other observations

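Immediate early genes, which rise within minutes of a stimulus and are often raised by tissue digestion, also differed between the fractions. Of 24 on the list, 9 were higher in adipocytes and 10 in the stromal vascular fraction on the CPM scale (28.7% and 59.1% of all genes). Under the other scalings these counts were 12 to 14 and 7, where 5721 to 6678 and 5542 to 6550 of all 14193 genes were called. Klf2 (-3.40 ± 0.14), Egr3 (-2.99 ± 0.18) and Klf4 (-2.83 ± 0.14), on log2(CPM + 1), were among those higher in the pellet. Between genotype labels within the pellet, 22 of 24 estimates were negative (59.4% of all genes), 4 had an unadjusted p under 0.05 (7.56% of all genes) and none passed in limma. Wild-type replicate 2 was the highest stromal vascular library for 15 of the 24 (62.5%), against 22.9% of all genes, while for the chaperones it was the highest for 20 of 69 members.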
